A study of Rattus norvegicus with 10 samples.

Results

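The genes described here encode tau, the other large microtubule-associated proteins of neurons and the kinases that phosphorylate them: Mapt, Map1a, Map1b, Map2, Gsk3a, Gsk3b, Cdk5, its activator Cdk5r1, Mark1 and Mark2. They were chosen by symbol, and all 10 were found among the 17168 genes of the deposited count table and passed the filter on low counts, which kept 11682 genes. Female TgF344-AD rats (TgF-344AD in the labels) gave 10 libraries of RNA, each from 1 left hippocampus, with 5 animals per group. The untreated group ate rodent chow, and the ibudilast group ate ibudilast chow from 5 months of age for 6 months. All animals carried the Tg-AD genotype, were 11 months old at dissection and had been perfused under ketamine and xylazine, and the series as used here holds no wild-type group, so every value compares transgenic with transgenic animals. TgF344-AD rats express mutant human transgenes, including APP, from the mouse prion promoter and carry no tau transgene, so Mapt here is the rat gene. Ibudilast inhibits several cyclic nucleotide phosphodiesterases.

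Tau and its relatives bind along microtubules, tau mostly in axons and MAP2 in dendrites, and hold them in bundles. Phosphorylation loosens this binding: GSK3 and CDK5 phosphorylate serines and threonines that precede prolines, and the MARK kinases phosphorylate the microtubule-binding repeats. In Alzheimer disease hyperphosphorylated tau collects in neurofibrillary tangles, and the hippocampus is among the regions affected early. Transcript levels say nothing of kinase activity or of tau phosphorylation, neither of which was measured.

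With ibudilast the transcripts of 4 of the 10 genes rose and none fell, and all 4 belong to the kinase side: Gsk3b, Cdk5r1, Mark1 and Mark2 (quasi-likelihood test of edgeR, adjusted p under 0.05 over all 11682 genes). The structural genes Mapt, Map1a, Map1b and Map2 did not pass, nor did the kinase genes Gsk3a and Cdk5. The same rule called 38.5% of all tested genes, 20.0% higher and 18.5% lower, so 4 of 10 higher is to be read against a background in which 1 gene of every 5 rose. The share that rose was larger among long genes, as given below. DESeq2 called 6 of the 10 genes higher, adding Mapt and Map1a. It also called more of the 11682 tested genes higher, 2576 against 2337 with edgeR. The median log2 fold change was 0.32 over the 10 genes and 0.01 over all tested genes.

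**Figure D1:**
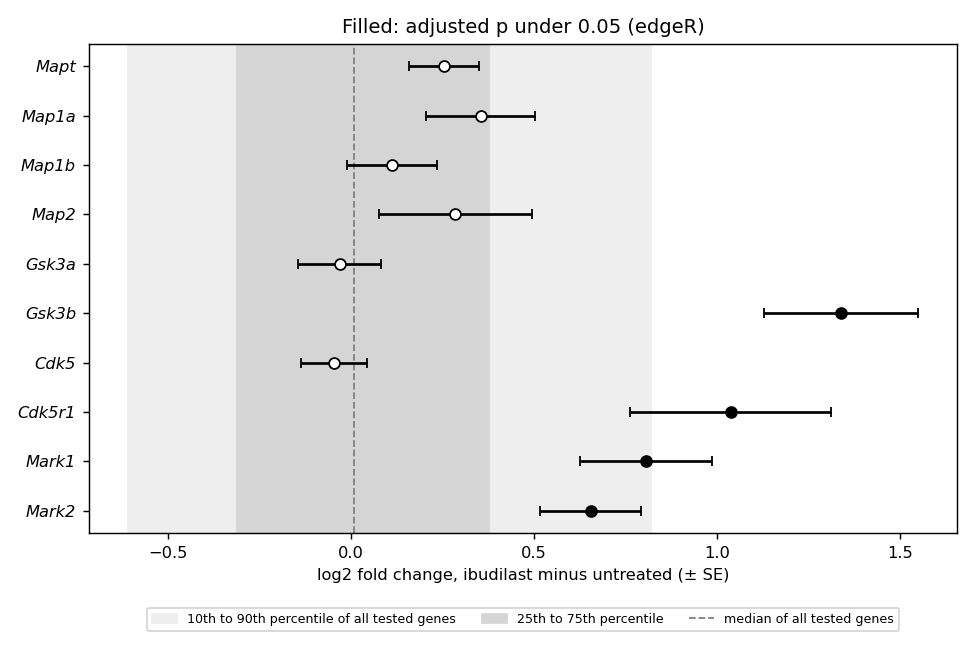
Log2 fold change (ibudilast minus untreated) of each gene with its standard error, n = 5 libraries per group, over bands that give the spread of all 11682 tested genes. Filled points passed the test: Gsk3b at 1.34, Cdk5r1 at 1.04, Mark1 at 0.81 and Mark2 at 0.65.

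Total estimated counts per library ran from 6960066 to 10121571. The lowest count of any of the 10 genes in a library was 139 (Gsk3b in untreated 1), for which counting error alone gives a coefficient of variation of 8.48%, and the highest was 23707 (Map1b in ibudilast 5). Among the ibudilast libraries, ibudilast 3 was the lowest for 9 of the 10 genes and ibudilast 4 the highest for 9 of the 10. Ibudilast 3 also held 4346 CPM of cerebellar markers against at most 217 CPM in any other library, ibudilast 3 and ibudilast 5 held 1068 and 1245 CPM of meningeal fibroblast markers against at most 204 CPM elsewhere, and untreated 1 held 2588 CPM of choroid plexus markers against at most 71.8 CPM elsewhere. For pituitary markers the summed level was at most 7.45 CPM except in ibudilast 1, where it was 59.0 CPM, and ibudilast 3, where it was 31.98 CPM. CPM are counts adjusted for library size and, through TMM factors, for library composition. Results are given below with and without untreated 1, ibudilast 3 and ibudilast 5 together, and without ibudilast 1 or any other single library, where that changes a call.

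**Figure D2:**
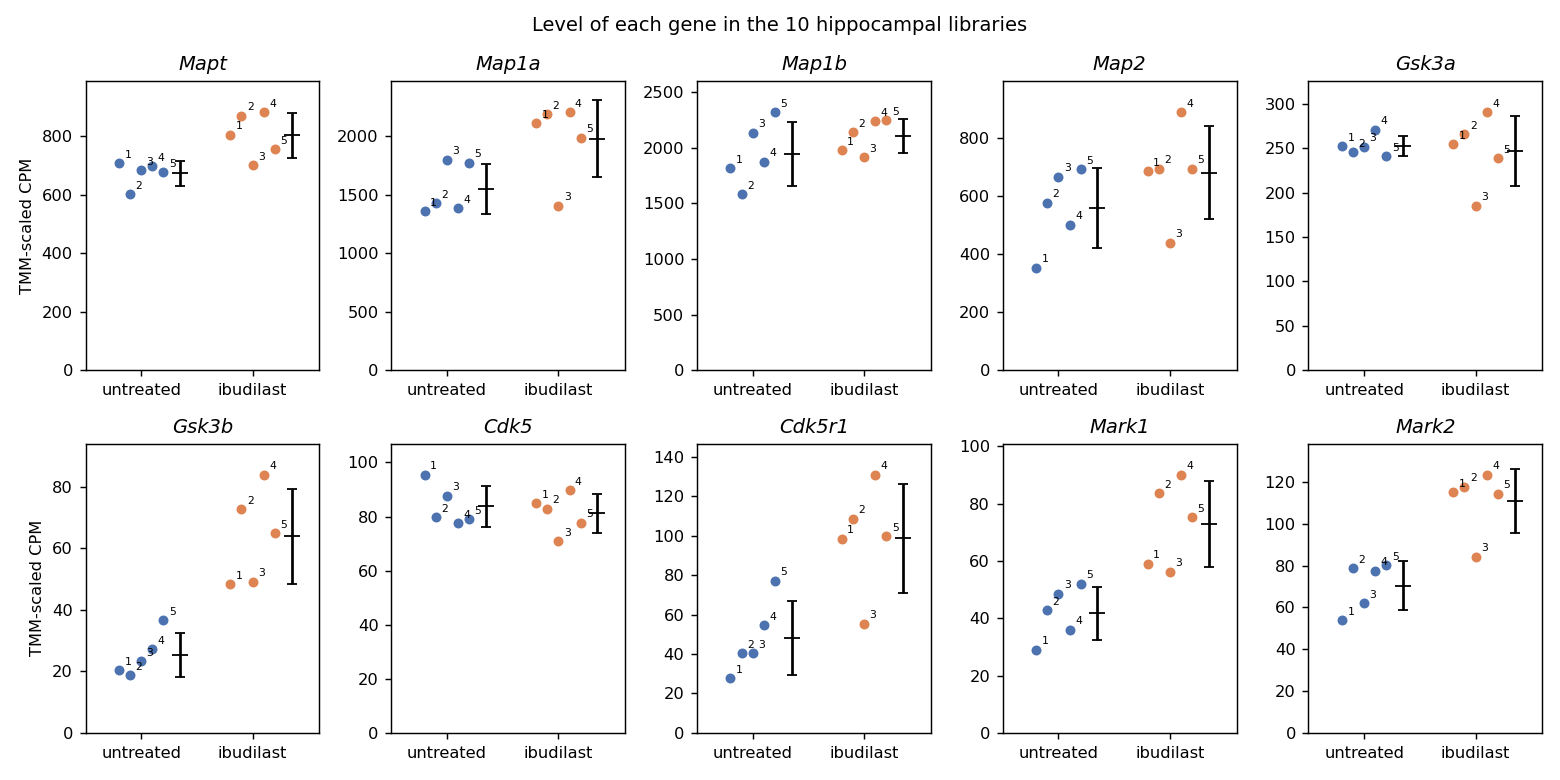
Level of each gene in TMM-scaled CPM in the 5 untreated (blue) and 5 ibudilast (orange) libraries, numbered by replicate, with bars for the mean ± SD. For Gsk3b, Mark1 and Mark2 every ibudilast library lies above every untreated library, and for Cdk5r1 only ibudilast 3 falls within the untreated range.

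Among the kinases, Gsk3b and its paralog Gsk3a went apart. Gsk3b encodes GSK3-beta, one of the main proline-directed tau kinases and the enzyme that the Wnt and insulin pathways inhibit. It stood at 20.5, 18.7, 23.2, 27.2 and 36.7 CPM in untreated 1 to 5 and at 48.5, 72.8, 49.2, 84.0 and 65.0 CPM in ibudilast 1 to 5. The groups did not overlap: the lowest ibudilast library lay above the highest untreated one. The log2 fold change was 1.34 ± 0.21 (SE; edgeR adjusted p = 0.00134), a 2.53-fold ratio of means. It ran from 1.22 to 1.54 with any 1 library left out and passed in all 10 such fits.

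Gsk3a encodes GSK3-alpha, which shares most substrates with GSK3-beta. Its levels were 252, 246, 252, 271 and 241 CPM in untreated 1 to 5 and 254, 266, 185, 291 and 239 CPM in ibudilast 1 to 5. The groups overlapped: ibudilast 1 and ibudilast 2 lay within the untreated range, ibudilast 4 was the highest of the 10 libraries, and ibudilast 3 and ibudilast 5 lay below the untreated range, ibudilast 3 the farther. The log2 fold change was -0.03 ± 0.11 (SE; edgeR adjusted p = 0.845), and it was 0.06 without ibudilast 3.

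The promoters of this pair are shown because the 2 paralogs differed in response; each is 250 bases before to 50 bases after the start site that RefSeq gives the gene in build GRCr8, in lower case with motif matches in capitals. Of the 10 genes 9 had an entry, and Mapt had none.
Gsk3b, chr11:76153200-76153499, minus strand: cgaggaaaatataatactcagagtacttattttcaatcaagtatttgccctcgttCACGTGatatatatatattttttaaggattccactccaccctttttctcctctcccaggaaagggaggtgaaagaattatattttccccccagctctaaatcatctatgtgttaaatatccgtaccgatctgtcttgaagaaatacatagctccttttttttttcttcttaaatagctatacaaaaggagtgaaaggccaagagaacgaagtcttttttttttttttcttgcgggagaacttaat
Gsk3a, chr1:89953465-89953764, minus strand: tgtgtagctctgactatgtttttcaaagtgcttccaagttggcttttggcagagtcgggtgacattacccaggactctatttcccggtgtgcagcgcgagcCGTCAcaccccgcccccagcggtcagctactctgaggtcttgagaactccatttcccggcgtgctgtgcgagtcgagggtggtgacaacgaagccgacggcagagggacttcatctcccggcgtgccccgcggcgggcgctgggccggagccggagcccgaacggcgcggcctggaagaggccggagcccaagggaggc
Motifs were searched on both strands: the E-box CACGTG, the full cAMP response element TGACGTCA, and its half-site TGACG, read as CGTCA on the other strand, which lies within the full element. The Gsk3b window held CACGTG once, starting at position -195 from the start site, as did 6.42% of the 33469 promoters at least once. The Gsk3a window held the half-site once, at -149, and the Map1a window held it at -82 and -38, against 21.2% of all promoters with at least 1. The full element, present in 1.83% of promoters, was in none of the 9 windows, and the windows of the other called genes, Cdk5r1, Mark1 and Mark2, held none of these motifs. Base composition differed widely among the called genes. The Gsk3b window was 34.7% G and C, with 4.13% of promoters lower, and the Mark1 window was 86.0%, with 99.9% of promoters lower. Whether transcripts in these libraries began at these sites was not measured.

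The CDK5 pair also went apart. Cdk5r1 encodes p35, a neuronal activator of CDK5, and calpain cleaves p35 to the longer-lived p25. Cdk5r1 stood at 27.7, 40.5, 40.3, 54.6 and 77.1 CPM in untreated 1 to 5 and at 98.4, 109, 55.3, 131 and 99.8 CPM in ibudilast 1 to 5. All ibudilast libraries except ibudilast 3 lay above the highest untreated library. Its log2 fold change was 1.04 ± 0.28 (SE; edgeR adjusted p = 0.0134), and no call was lost when any 1 library was left out, with values from 0.89 to 1.30. The untreated libraries varied more for Cdk5r1, with a coefficient of variation of 39.2%, than for any other of the 10 genes.

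Cdk5, the catalytic partner, stood at 95.4, 79.8, 87.6, 77.4 and 78.9 CPM in untreated 1 to 5 and at 84.9, 82.8, 71.0, 89.6 and 77.7 CPM in ibudilast 1 to 5. The ranges overlapped, with untreated 1 the highest of the 10 libraries and ibudilast 3 the lowest. The log2 fold change was -0.05 ± 0.09 (SE; edgeR adjusted p = 0.711), and it was 0.01 without ibudilast 3. Cdk5r2, which encodes the related activator p39, stood at 216 ± 42.2 and 255 ± 84.8 CPM (SD, n = 5 each) and did not pass.

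Both MARK genes of the set rose. Mark1 and Mark2 encode kinases that phosphorylate the repeats of tau and of MAP2 and thereby detach them from microtubules. Mark1 stood at 29.0, 42.8, 48.5, 36.0 and 52.0 CPM in untreated 1 to 5 and at 59.0, 83.7, 56.3, 90.1 and 75.2 CPM in ibudilast 1 to 5. Mark2 stood at 53.9, 78.7, 61.9, 77.6 and 80.1 CPM in untreated 1 to 5 and at 115, 118, 84.2, 123 and 114 CPM in ibudilast 1 to 5. In both genes the groups did not overlap, though ibudilast 3 lay close to untreated 5. The log2 fold changes were 0.81 ± 0.18 for Mark1 and 0.65 ± 0.14 for Mark2 (SE; edgeR adjusted p = 0.00596 and 0.00448), and both passed in all 10 fits with 1 library left out. The other MARK genes, Mark3 and Mark4, had log2 fold changes of 0.02 ± 0.07 and 0.06 ± 0.11 (SE) and did not pass. Over all tested genes the groups did not overlap at 24.3%, 12.5% with ibudilast higher, against 3 of these 10 genes with ibudilast higher.

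Tau itself lay near the threshold. Mapt stood at 708, 601, 684, 698 and 677 CPM in untreated 1 to 5 and at 805, 871, 702, 883 and 756 CPM in ibudilast 1 to 5. Only ibudilast 3 fell within the untreated range. The log2 fold change was 0.25 ± 0.09 (SE; edgeR adjusted p = 0.0541), a 1.19-fold ratio of means. It passed without untreated 5 (0.28, adjusted p = 0.0475), without ibudilast 3 (0.31, adjusted p = 0.0141) and without untreated 1, ibudilast 3 and ibudilast 5 together (0.35, adjusted p = 0.0353).

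Map1a, which encodes a stabiliser of mature dendritic microtubules, had the same layout of libraries. It stood at 1359, 1427, 1796, 1386 and 1771 CPM in untreated 1 to 5 and at 2109, 2188, 1405, 2205 and 1984 CPM in ibudilast 1 to 5. Again 4 ibudilast libraries lay above all untreated ones and ibudilast 3 lay among them. The log2 fold change was 0.35 ± 0.15 (SE; edgeR adjusted p = 0.0800), and without ibudilast 3 it was 0.46 and passed (adjusted p = 0.00783). Without untreated 1, ibudilast 3 and ibudilast 5 together it was 0.44 and passed (adjusted p = 0.0395).

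Map1b encodes the relative of MAP1A that is prominent in growing axons. Map1b stood at 1816, 1580.0, 2133, 1871 and 2319 CPM in untreated 1 to 5 and at 1975, 2138, 1912, 2238 and 2247 CPM in ibudilast 1 to 5. The highest value was untreated 5, and every ibudilast library lay within the untreated range. On the log2 scale the difference of 0.11 ± 0.12 (SE) did not pass (edgeR adjusted p = 0.489).

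Map2, the main dendritic member, varied most among the structural genes. It stood at 353, 577, 667, 502 and 693 CPM in untreated 1 to 5 and at 686, 694, 439, 889.8 and 694 CPM in ibudilast 1 to 5. The groups overlapped, with untreated 1 the lowest of all libraries and ibudilast 3 the second lowest. Its log2 difference, 0.28 ± 0.21 (SE), did not pass either (edgeR adjusted p = 0.298).

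Ratios of related genes within a library, which do not depend on the scaling between libraries, were compared for 5 pairs with a two-sided exact permutation test, for which the smallest possible p was 0.00794. A CPM ratio between 2 genes depends on their transcript lengths, so only its difference between groups is read. The log2 ratio of Gsk3b to Gsk3a was -3.61, -3.70, -3.42, -3.30 and -2.71 in untreated 1 to 5 and -2.39, -1.86, -1.91, -1.79 and -1.87 in ibudilast 1 to 5. The groups did not overlap. The difference was 1.38 (exact permutation p = 0.00794, adjusted p = 0.0397 over the 5 ratios), so Gsk3b rose relative to Gsk3a. The ratio of Cdk5r1 to Cdk5 was higher by 1.11 on the log2 scale (exact permutation p = 0.0159, adjusted p = 0.0397), with ibudilast 3 below untreated 5. Without ibudilast 2, ibudilast 4 or ibudilast 5 the adjusted exact p was 0.0794 for both ratios, and for Gsk3b to Gsk3a it was 0.0397 when any other single library was left out. For Cdk5r1 to Cdk5 it was 0.0595 without untreated 1, untreated 2, untreated 3 or untreated 4 and 0.0794 without ibudilast 1.

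The other 3 ratios did not pass. Mark1 to Mark2 differed by 0.15 (adjusted exact permutation p = 0.456) and Mapt to Map2 by -0.04 (adjusted exact permutation p = 0.881). Map1b to Map1a differed by -0.22 (adjusted exact permutation p = 0.172), or by -0.31 without ibudilast 3, where the adjusted exact p was 0.0397. A p that misses the threshold does not show that the 2 genes of a pair moved alike.

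**Figure D3:**
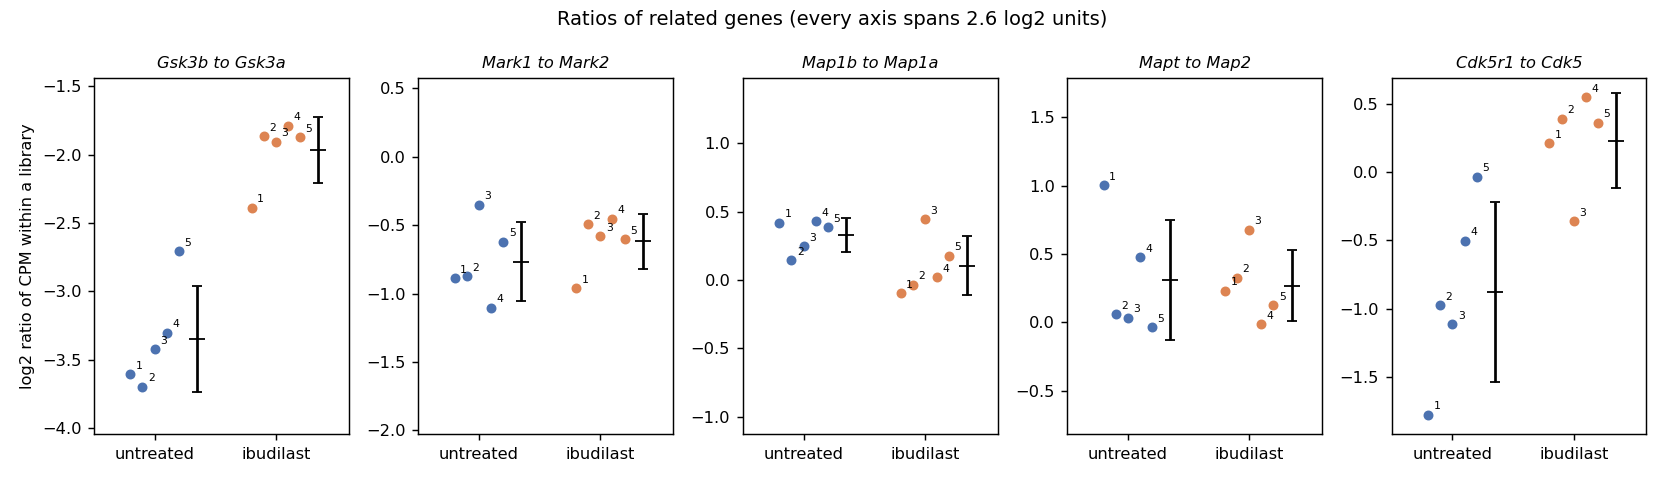
Log2 ratio of CPM for 5 pairs of related genes in each library (numbers are replicates, bars are mean ± SD, n = 5 per group), on axes of equal span. The ibudilast libraries lie above all untreated libraries for Gsk3b to Gsk3a, and the groups overlap for the other 4 pairs.

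Fold changes in this comparison moved with the genomic span of a gene, meaning the distance from its annotated start to its end. The median log2 fold change was -0.31 in the decile of shortest genes and 0.38 in the decile of longest genes, and 5.75% and 38.2% of genes in these deciles were called higher. In the eighth and ninth deciles 30.9% and 36.4% of genes were called higher. Spans are from RefSeq build GRCr8, whereas the counts used rn6, so they are approximate. Gsk3b, at 150.2 kb, lies in the tenth decile, and its fold change was above that decile's median. Mark1 (105 kb, the ninth decile) and Mark2 (65.2 kb, the eighth) were also above the medians of 0.26 and 0.20 there. Mapt (97.5 kb), Map1b (93.0 kb) and Map2 (259 kb) were within 0.15 of theirs. Cdk5r1 went against the trend: at 4.14 kb it lies in the shortest decile, where 40.1% of genes fell. With the span trend removed, Gsk3b, Cdk5r1, Mark1 and Mark2 still passed, with log2 fold changes of 1.03, 1.23, 0.54 and 0.45 (edgeR adjusted p = 0.00228, 0.0116, 0.0266 and 0.0236). Mapt was then at -0.01, Map1b at -0.14 and Map2 at -0.10, none of which passed.

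**Figure D4:**
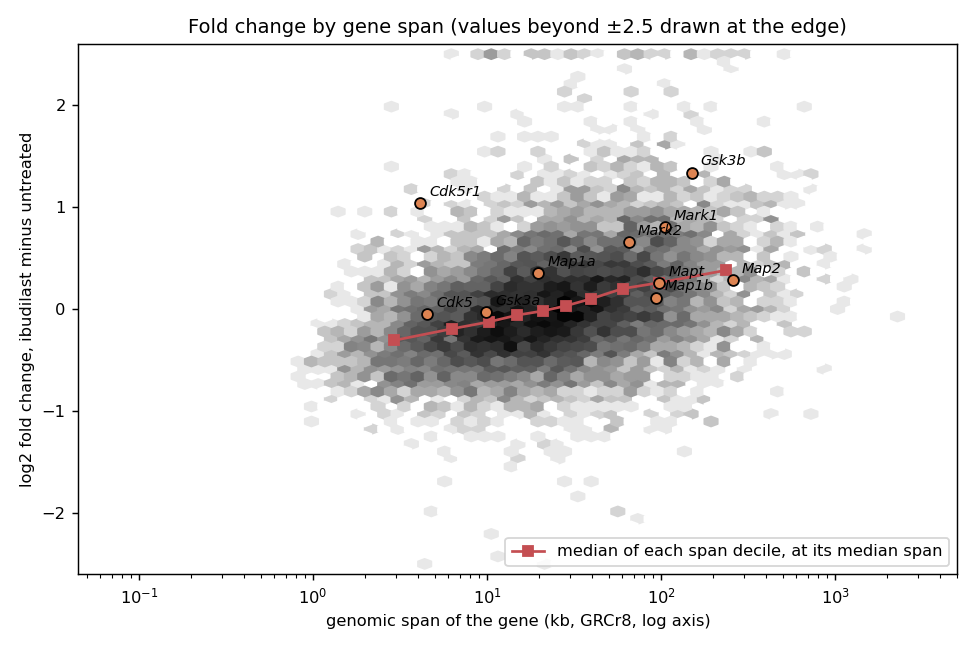
Log2 fold change (ibudilast minus untreated) against genomic span in kb on a log axis for tested genes (grey, darker where denser), with the median of each span decile (red) and the 10 genes (orange). Mapt, Map1b and Map2 lie near the red line, and Gsk3b (1.34) and Cdk5r1 (1.04) lie farther above it than the other 8 genes.

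Markers of the tissue sampled also differed between the groups. In tissue RNA, fewer cells of a type and less RNA per cell cannot be told apart. Of 12 neocortical markers 8 rose and 0 fell, and their summed level was 324 to 465 CPM untreated against 416 CPM (ibudilast 3) to 1092 CPM (ibudilast 4) with treatment. Of 11 tested hippocampal principal cell markers 0 rose and 6 fell, and their summed level was 813 to 1709 CPM untreated against 431 to 1009 CPM. The 12 pan-neuronal markers summed to 8275 to 12377 CPM and 8186 to 11062 CPM, and 1 rose and 2 fell. Microglia markers fell in 7 of 8 cases and astrocyte markers in 4 of 7, and none of 7 oligodendrocyte markers passed. These counts stand against 20.0% of all tested genes higher and 18.5% lower. None of the markers in these lists was at 0 in all libraries. With a score of the neocortical markers as a covariate, Gsk3b passed (log2 fold change 0.89, edgeR adjusted p = 0.0266), whereas Cdk5r1 (0.35), Mark1 (0.42) and Mark2 (0.34) did not (adjusted p = 0.427, 0.173 and 0.143). With a score of the hippocampal markers, Gsk3b (1.17, adjusted p = 0.0418) and Mark2 (0.81, adjusted p = 0.0359) passed, and Cdk5r1 (1.18, adjusted p = 0.0881) and Mark1 (0.60, adjusted p = 0.143) did not. With a score of the pan-neuronal markers all 4 passed, as did Mapt (0.28, adjusted p = 0.0210) and Map1a (0.40, adjusted p = 0.0403). Mapt and Map1a did not pass under the neocortical score (0.11 and 0.03, edgeR adjusted p = 0.577 and 0.909). Nor did Mapt and Map1a pass under the hippocampal score (0.21 and 0.32, edgeR adjusted p = 0.332 and 0.339). The neocortical and hippocampal scores themselves differed with treatment, and the part of tissue content in these results was not tested beyond these fits.

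Of 24 tested genes of other kinases that phosphorylate tau 10 rose, 1, Mapk3, fell and 13 did not pass, against 20.0% higher and 18.5% lower over all tested genes. The number that rose was 5 under the neocortical score and 4 under the hippocampal score. Over all 11682 tested genes 1510 and 589 rose in these fits, against 2337 in the main test. The list median on the log2 scale was 0.28, against 0.01 over all tested genes. Neither this list nor those below were matched to all genes for span, and decile medians ran from -0.31 to 0.38 with span. With the span trend removed 8 of the 24 rose and 3 fell, against 1817 and 2139 of all tested genes. Nuak1, a kinase of the AMPK family that phosphorylates tau, stood at 19.0 ± 5.75 CPM untreated and 64.2 ± 12.1 CPM with ibudilast (mean ± SD, n = 5 each, as below). The tau-tubulin kinase genes Ttbk1 and Ttbk2 went from 36.8 ± 7.02 to 97.0 ± 22.7 CPM and from 16.3 ± 4.66 to 49.5 ± 12.4 CPM. Abl1, a tyrosine kinase gene, went from 58.3 ± 7.37 to 96.7 ± 13.7 CPM. In each of these 4 genes, named for the smallest p in the list, the groups did not overlap. Without overlap and higher with ibudilast were 8 of the 24 genes, against 12.5% of all tested genes. Mapk3, which encodes ERK1, fell by 0.52 on the log2 scale (edgeR adjusted p = 0.0452), a call lost without untreated 1, 3 or 5 and without ibudilast 2, 3, 4 or 5.

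Genes of the phosphatases that remove phosphate from tau, and of their regulators, mostly did not pass. Of 25 tested genes 2 rose and 4 fell, against 20.0% higher and 18.5% lower over all tested genes, and the list median was -0.05 on the log2 scale. The groups did not overlap for 1 gene higher and 5 lower with ibudilast, against 12.5% and 11.7% of all tested genes. Ppp2r2c, which encodes a brain regulatory subunit of protein phosphatase 2A, went from 132 ± 23.1 to 243 ± 48.1 CPM, and Ppp2r1b, a scaffold subunit gene, rose by 0.47 on the log2 scale. Among those that fell, Ppp3r1, the regulatory subunit of calcineurin, went from 1153 ± 199 to 736 ± 126 CPM. Anp32a, which encodes an inhibitor of protein phosphatase 2A, fell by 0.36, Lcmt1, the methyltransferase of its catalytic subunit, by 0.46, and Ppp2ca, that catalytic subunit, by 0.32 on the log2 scale. Without ibudilast 3 the number higher was 5, and it was 1 without untreated 1, ibudilast 2, ibudilast 4 or ibudilast 5, 1 under the hippocampal score and with the span trend removed, and 0 under the neocortical score. Over all tested genes 2573 were higher without ibudilast 3, and 1843, 1909, 1976 and 1990 without those other libraries. The hippocampal score gave 589, removal of the span trend 1817 and the neocortical score 1510, against 2337 in the main test. The number lower was 8 without ibudilast 1 and with DESeq2, 9 with upper-quartile factors and 0 under the hippocampal score. Over all tested genes 2284, 2398, 2521 and 550 fell in these fits, in that order, against 2160 in the main test.

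Of 32 tested genes of other microtubule-associated proteins 17 rose and 3 fell, against 20.0% and 18.5% of all tested genes, and the list median was 0.33 on the log2 scale. Camsap1, which binds microtubule minus ends, went from 118 ± 17.0 to 195 ± 14.6 CPM. Tppp, which encodes a tubulin polymerisation-promoting protein of oligodendrocytes, went from 52.8 ± 9.12 to 121 ± 28.1 CPM, and Map6, a stabiliser of neuronal microtubules, from 90.5 ± 15.8 to 172 ± 36.7 CPM. Map4, the member that is widespread outside neurons, went the other way, from 796 ± 178 to 399 ± 58.1 CPM. Genes of proteins that track growing microtubule plus ends went both ways. Mapre3 and Mapre1, the other 2 that fell, did so by 0.50 and 0.44 on the log2 scale, whereas their relative Mapre2 rose by 0.31, and Clip1, Clip2 and Clasp2 rose by 0.66, 0.63 and 0.35. The number of the 32 that rose was 3 under the neocortical score, 3 under the hippocampal score, 9 with the span trend removed and 10 without untreated 1, ibudilast 3 and ibudilast 5, and 1 fell under the hippocampal score. Over all tested genes 1510, 589, 1817 and 1755 rose in these fits, in that order, against 2337 in the main test. Under the hippocampal score 550 of all tested genes fell, against 2160 in the main test.

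Of 26 tested regulators of GSK3, CDK5 and the MARK kinases 7 rose and 2 fell, against 20.0% and 18.5% of all tested genes, and the list median was 0.21 on the log2 scale. The number that rose was 4 with the span trend removed and 2 under the hippocampal score. Over all tested genes 1817 and 589 rose in these fits, against 2337 in the main test. The number that fell was 1 under the neocortical score, and 0 under the hippocampal score and without untreated 1, ibudilast 3 and ibudilast 5. Over all tested genes 1010, 550 and 1357 fell in these fits, in that order, against 2160 in the main test. Pdpk1, which encodes the kinase that activates AKT upstream of GSK3, went from 17.0 ± 6.25 to 50.3 ± 9.98 CPM. Pik3r1, a regulatory subunit of phosphoinositide 3-kinase, went from 33.8 ± 4.72 to 62.5 ± 17.5 CPM. Dvl3, a Wnt transducer upstream of GSK3, went from 32.4 ± 4.29 to 55.0 ± 4.28 CPM. The 2 that fell were Capns1, the small subunit of the calpains that cleave p35, by 0.50, and Stk11, a kinase upstream of the MARK family, by 0.45 on the log2 scale.

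**Figure D5:**
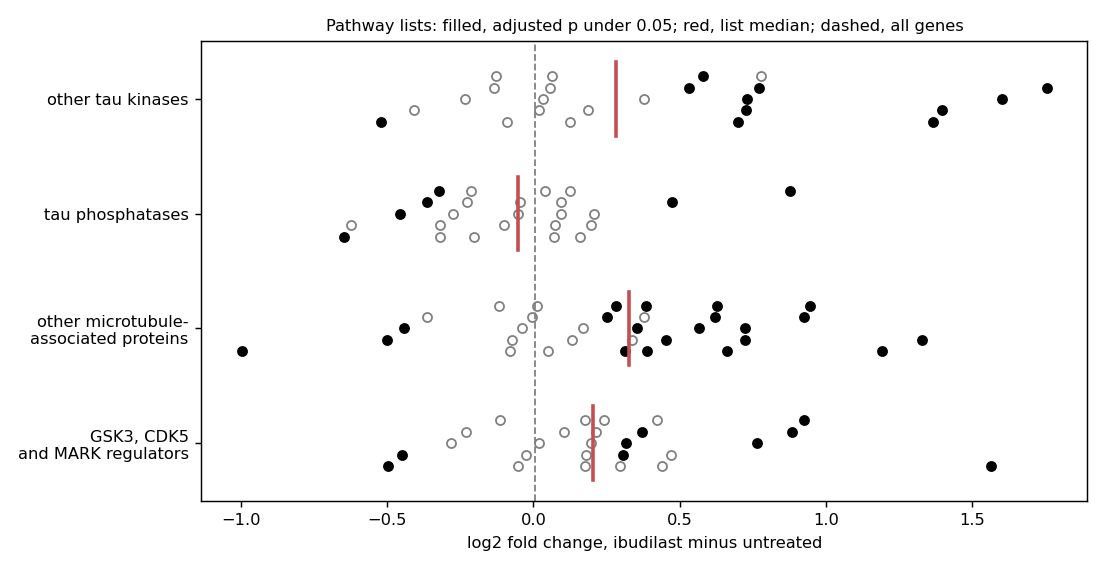
Log2 fold change (ibudilast minus untreated) of each tested gene in 4 lists of related genes, filled where the edgeR adjusted p was under 0.05, with the list median in red and the median of all tested genes dashed. The lists of kinases, microtubule-associated proteins and regulators have medians of 0.28, 0.33 and 0.21, and that of the phosphatases lies at -0.05.

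Over the 10 libraries the genes whose log2 CPM ran closest to Gsk3b were St8sia3, Rb1cc1 and Kcnma1, with Pearson correlations of 0.99 each, and those closest to Mark2 were Gpatch2, Dennd1a and Pik3cb, also at 0.99. Closest to Mapt were Tatdn2, Tnip1 and Chpf, at 0.98, 0.97 and 0.96. These were the highest of 11672 genes compared, the libraries share their depth and composition across all genes, and the difference between the groups enters each value.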

How the data were processed

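Per the submitters' processing notes, the authors used bcl2fastq 2.17, Bowtie2 2.1.0, RSEM 1.2.15, edgeR and build rn6. The authors deposited RSEM's estimated counts for each gene, which need not be whole. Neither the annotation nor any filter or strand setting of the counting is stated in the sources used here, and reads of overlapping or antisense genes carry that uncertainty. The authors also deposited a signal table of TMM-scaled CPM, used as an alternative. Values that were not whole, 10.6% to 11.3% of each library, were rounded. Per the labels, libraries were strand-specific mRNA, and the titles carry a separate animal tag per library. Dates had replaced 25 symbols, none of them a gene reported here.

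Groups came from the treatment labels. The main test was the quasi-likelihood test of edgeR 4.0.16 (R 4.3.3) with TMM factors and filterByExpr, tested on simulated data, with Benjamini-Hochberg adjustment over all tested genes. Group means and SDs are TMM-scaled CPM from the rounded counts, and an SE is the fold change divided by the root of its F statistic. Ratios used log2 CPM with a prior count of 2. Alternatives used DESeq2 1.42.0, limma 3.58.1, other factors and filters, marker scores as covariates, a loess offset on span, and libraries left out. The members and lists were chosen with earlier results of these data known. Named from each list were the 4 called genes of smallest p, apart from 1 regulator that is not reported here. Genes that complete a count of 5 or fewer, Cdk5r2, Mark3, Mark4, Mapre2, Clip1, Clip2 and Clasp2, and the genes under other observations, were added after their values were seen. Symbols were matched directly or by 1 RefSeq synonym.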

Additional observations from a re-analysis of the deposited data

Results flagged for a closer look

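In 3 of 30 sets of 5 libraries checked (10 genes and 5 ratios in each group), 1 library stood farther from the others than Dixon's 95% critical value of 0.710 allows, and chance gives this in about 1 set of 20. In ibudilast 3 the level of Map1a was 1405 CPM, where the other libraries of that group ran from 1984 to 2205 CPM. Mark2 stood at 84.2 CPM in the same library, against 114 to 123 CPM in the other 4. The log2 ratio of Gsk3b to Gsk3a was -2.39 in ibudilast 1, against -1.91 to -1.79 in the other ibudilast libraries.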

How the results depend on the processing

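Gsk3b passed under all 25 alternatives, with log2 fold changes from 0.89 to 1.54. Cdk5r1 and Mark1 lost their calls under the neocortical and hippocampal scores, and Mark2 under the neocortical score. Among the 6 genes not called, the sign turned for Mapt (-0.0106) and Map1b (-0.14) with the span trend removed, and for Map2 with it removed (-0.10) and under the neocortical score (-0.19). Gsk3a was at 0.0707 and Cdk5 at 0.155 with the span trend removed, at 0.0947 and 0.0803 without untreated 1, ibudilast 3 and ibudilast 5, and between -0.0974 and 0.0636 and between -0.0844 and 0.0070 with 1 library left out. Under the neocortical score Gsk3a was at -0.33 and Cdk5 at -0.17, and neither passed (edgeR adjusted p = 0.0882 and 0.333).

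Under the neocortical score 1510 genes rose and 1010 fell, with 1 of the 10 genes higher; tau kinases gave 5 higher and 0 lower, phosphatases 0 higher, microtubule-associated proteins 3 higher and regulators 1 lower. Under the hippocampal score 589 rose and 550.0 fell, with 2 of the 10 higher; the lists gave 4 and 0 (kinases), 1 and 0 (phosphatases), 3 and 1 (microtubule-associated proteins) and 2 and 0 (regulators) higher and lower. Without untreated 1, ibudilast 3 and ibudilast 5, 1755 of 11720 tested genes rose and 1357 fell. In that fit 0 kinases fell, 10 microtubule-associated proteins rose and 0 regulators fell. With the span trend removed 3 kinases fell and 1 phosphatase, 9 microtubule-associated proteins and 4 regulators rose, where 1817 of all tested genes rose and 2139 fell. Kinases lower numbered 3 with upper-quartile factors and DESeq2 and 0 without a filter, under the pan-neuronal score and with the replicate block, and phosphatases lower numbered 9 and 8 with upper-quartile factors and DESeq2. Over all genes 2521 fell with upper-quartile factors and 2398 with DESeq2. Without a filter 2046 of 14748 fell, under the pan-neuronal score 2096 and with the replicate block 1661. With 1 library left out, kinases lower ran from 0 to 3, and phosphatases from 1 to 5 higher and 4 to 8 lower. All tested genes ran from 1843 to 2573 higher and from 1615 to 2284 lower in those fits. The cause of these changes was not tested.

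With 1 library left out the differences in log2 ratio ran from 1.30 to 1.54 (Gsk3b to Gsk3a), 0.89 to 1.32 (Cdk5r1 to Cdk5), -0.31 to -0.17 (Map1b to Map1a) and -0.14 to 0.14 (Mapt to Map2). Without untreated 1, ibudilast 3 and ibudilast 5 they were 1.27 (adjusted exact permutation p = 0.0952), 1.04 (0.0952) and, for Mapt to Map2, 0.0479. Same-numbered libraries did not deviate together (correlations from -0.13 to 0.02), and the main test did not pair them. A pairing that moved only some genes need not show in these correlations. With the replicate block 4 of the 10 genes and 1874 of the 11682 tested genes rose. The ratios then gave 1.38 and 1.11 (adjusted exact permutation p = 0.156 each), a design too small to pass.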

Other observations

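The following genes from the list of tau kinases were picked after their values were seen. The JNK genes Mapk8, Mapk9 and Mapk10 had log2 fold changes of 0.53, 0.73 and 0.58 and all 3 rose. The p38 genes Mapk12 and Mapk14 were at 0.78 and 0.12 and did not pass (edgeR adjusted p = 0.285 and 0.466). The PKA catalytic subunit gene Prkacb rose from 66.0 ± 24.8 to 170.2 ± 51.3 CPM (mean ± SD, n = 5 per group), and Prkaca stood at 261 ± 18.2 and 222 ± 21.3 CPM (edgeR adjusted p = 0.0597). The casein kinase gene Csnk1e rose by 0.77 and Csnk1d was at 0.03. Differences between these paralogs were not tested.

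Several phosphatase genes lay just short of the threshold on the lower side, and Ppp2r4 on the higher side (log2 fold change 0.21, edgeR adjusted p = 0.0617). Ppp2r1a, the main scaffold subunit of protein phosphatase 2A, had a log2 fold change of -0.32 (edgeR adjusted p = 0.05001), Ppp1ca, a catalytic subunit of protein phosphatase 1, -0.23 (0.0532), Ppp3ca, the catalytic subunit of calcineurin, -0.62 (0.0536) and Set, an inhibitor of protein phosphatase 2A, -0.21 (0.0574).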
